A study of Mus musculus with 6 samples.

Results

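The genes described here are 34 genes known to be induced by glucocorticoids, taken by symbol out of the 54532 genes counted in mouse lungs after hemorrhagic shock (HS). They were chosen from general knowledge of the pathway and not by their values in these libraries, although earlier results of these data were known. All 34 had enough counts to be tested, as did 16568 genes in all, so no gene of the list was lost to the filter on low counts.

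RNA from 3 GR+/+ and 3 GRdim/dim lungs was sequenced after poly(A) capture, with 1 library per mouse. GRdim/dim mice carry a point mutation (Nr3c1 tm3Gsc) in the gene of the glucocorticoid receptor (GR) that impairs its dimerization. The mutation is inherited and so is present in every cell type of the lung. GR+/+ controls were littermates, all mice were on the 129/SvEv x C57BL/6 background, and their age ranged from 10 to 16 weeks. Both groups went through the same procedure, with anesthesia, mechanical ventilation and HS with the mean arterial pressure kept at 35 mmHg for 1 h. Re-transfusion of the shed blood and 4 h of resuscitation with colloids and norepinephrine followed. Every lung described here was therefore shocked, and no sham-operated, untreated or glucocorticoid-treated lung was analysed here. A value shows the difference between genotypes after HS, not the induction of a gene by hormone.

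GR is a transcription factor that is kept in the cytoplasm by chaperones until it binds cortisol or corticosterone. It then moves into the nucleus, where pairs of receptors bind palindromic glucocorticoid response elements and raise the transcription of nearby genes. Monomeric receptor also acts through other DNA-bound factors such as AP-1 and NF-kappaB. The GRdim mutation was made to separate these modes, and known induced genes are a common readout of the first. Many of them also answer to hypoxia, catecholamines, insulin or inflammatory cytokines.

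Promoter sequences are shown for 6 of the genes. Fam107a, Map3k6 and Txnip hold a loose match to the binding sequence of the receptor, and Tsc22d3, Fkbp5 and Rgs2 do not. Of these 6 genes, Txnip was the only one that DESeq2 did not call between genotypes, and Zbtb16, which it also called, was not searched. The sequences are the 250 bases before a RefSeq start site in GRCm38.p6, written 5′ to 3′ on the strand of the gene. The response element was searched on both strands as AGAACA, any 3 bases, then TGTTCT. A looser core was searched as GNACA, any 3 bases, then TGTNC, which also takes in every match of the stricter form. Capitals mark the looser core, or in Tsc22d3 the 6-base element TGTTCT alone.
Fam107a: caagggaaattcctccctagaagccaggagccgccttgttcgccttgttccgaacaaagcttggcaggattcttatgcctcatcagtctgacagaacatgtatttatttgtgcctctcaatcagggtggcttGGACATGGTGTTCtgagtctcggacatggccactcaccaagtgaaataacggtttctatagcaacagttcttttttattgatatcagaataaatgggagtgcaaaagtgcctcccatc
Map3k6: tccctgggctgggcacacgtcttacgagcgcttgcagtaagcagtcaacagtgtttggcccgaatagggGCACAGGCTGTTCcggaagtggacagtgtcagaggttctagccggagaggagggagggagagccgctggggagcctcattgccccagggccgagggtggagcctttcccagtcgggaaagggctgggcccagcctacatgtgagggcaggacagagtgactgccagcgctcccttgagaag
Txnip: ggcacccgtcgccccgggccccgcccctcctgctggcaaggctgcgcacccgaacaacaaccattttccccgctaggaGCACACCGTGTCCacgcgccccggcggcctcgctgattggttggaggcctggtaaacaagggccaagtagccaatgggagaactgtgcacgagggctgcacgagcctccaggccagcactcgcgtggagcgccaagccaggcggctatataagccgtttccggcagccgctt
Tsc22d3: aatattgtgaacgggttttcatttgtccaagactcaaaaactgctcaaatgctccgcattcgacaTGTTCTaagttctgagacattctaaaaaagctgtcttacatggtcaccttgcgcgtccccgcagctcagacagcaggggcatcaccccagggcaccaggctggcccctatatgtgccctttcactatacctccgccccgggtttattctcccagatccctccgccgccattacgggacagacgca
Fkbp5: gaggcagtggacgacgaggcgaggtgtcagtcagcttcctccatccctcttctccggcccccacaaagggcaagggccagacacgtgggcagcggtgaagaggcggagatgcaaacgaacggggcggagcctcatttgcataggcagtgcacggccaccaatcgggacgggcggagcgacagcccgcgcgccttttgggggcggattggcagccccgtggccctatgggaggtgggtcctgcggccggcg
Rgs2: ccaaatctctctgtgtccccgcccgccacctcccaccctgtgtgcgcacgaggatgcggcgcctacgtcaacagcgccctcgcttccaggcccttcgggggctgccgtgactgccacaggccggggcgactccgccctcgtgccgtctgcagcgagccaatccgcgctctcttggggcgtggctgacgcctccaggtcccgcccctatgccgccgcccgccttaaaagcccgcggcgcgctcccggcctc

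These windows lie at chr14:8309780-8310029 for Fam107a, chr4:133240568-133240817 for Map3k6, chr3:96557707-96557956 for Txnip, chrX:140600523-140600772 for Tsc22d3, chr17:28486150-28486399 for Fkbp5 and chr1:144004150-144004399 for Rgs2. Map3k6 and Txnip are on the plus strand and the others on the minus strand. RefSeq windows of 300 bases, from 250 before to 50 after the start, matched 28 of the 34 genes, some with several start sites, and gave 38 windows. Fam107a held the looser core at -118 to -106 from its start, and an overlapping window of the same gene holds the same copy. Map3k6 held it at -181 to -169 and Txnip at -172 to -160. So 3 of 28 genes, 10.7%, had the looser core, compared with 0.537% of the 27025 genes in the table. The stricter element was found in 0 of the 28 genes and in 3 genes of the table, and AGAACA or TGTTCT alone in 4 of the 28 (Fam107a, Tsc22d3, Cd163 and Bcl6), 14.3%, compared with 21.3% of all genes. Other start sites of the same genes had windows without any of these matches. They lay at chr14:8317608-8317857 for Fam107a, and at chrX:140542669-140542918 and chrX:140548572-140548821 for Tsc22d3. A match is a description of the sequence, and receptor binding was not measured here. Elements farther away or within introns are outside of these windows.

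For the whole list, 21 genes had lower and 13 had higher levels in GRdim/dim than in GR+/+ lungs, with a median log2 fold change of -0.13. The median over all genes tested was 0.01, and 49.1% of them were lower. A gene was called differentially expressed at an adjusted p-value under 0.05 with a log2 fold change beyond 0.5 in edgeR's quasi-likelihood test, adjusted by Benjamini-Hochberg over all genes tested. None of the 34 genes passed, and the smallest adjusted p-value was 0.0546. Over all genes, 0.0966% were called lower and 0.0724% higher. Before adjustment, 10 of the 34 genes (29.4%) were lower with a p-value under 0.05, compared with 4.68% of all genes, and 3 (8.82%) were higher, compared with 4.91%. The 3 GRdim/dim libraries were all below the 3 GR+/+ libraries in 9 of the 34 genes (26.5%), compared with 7.05% of all genes. They were all above in 2 (5.88%), compared with 7.77%. DESeq2, with adjusted p-values for 16150 genes and the same limits, called Fkbp5, Tsc22d3, Zbtb16, Map3k6 and Fam107a lower and Rgs2 higher. The share of all genes that DESeq2 called was 0.879% lower and 0.817% higher. With each library left out in turn, Fkbp5, Fam107a and Rgs2 kept this call in all 6 runs. Zbtb16 lost it without GRdim/dim 1 (adjusted p = 0.310) or GR+/+ 3 (adjusted p = 0.361) in DESeq2, and Tsc22d3 without GRdim/dim 1, GR+/+ 1 or GR+/+ 2 (adjusted p = 0.0641, 0.0968 and 0.145). Map3k6 kept it only without GRdim/dim 3 or GR+/+ 3, and its DESeq2 adjusted p-value was highest, at 0.275, without GR+/+ 1.

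**Figure D1:**
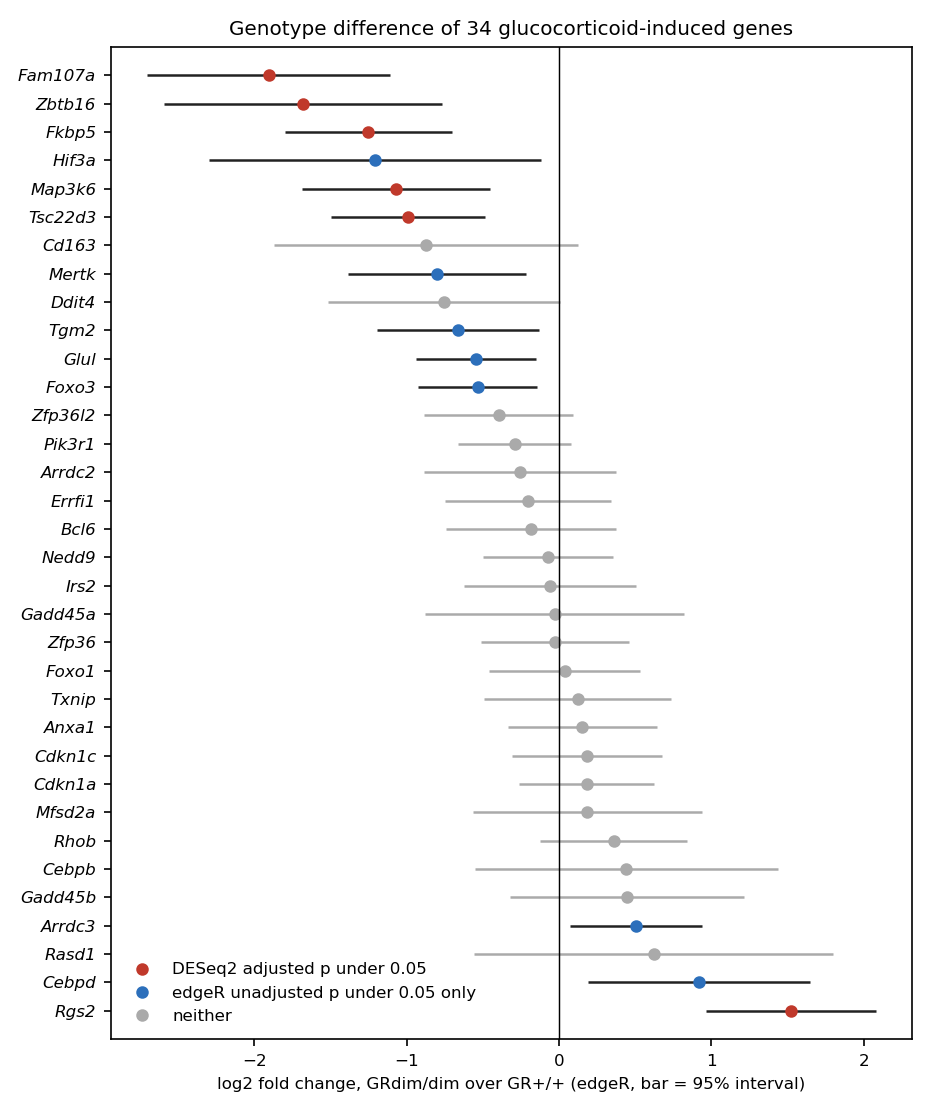
Log2 fold change of GRdim/dim over GR+/+ lungs for the 34 genes (x axis) in order of size (y axis), from edgeR, with 95% intervals as bars. Point colour marks genes that DESeq2 called, genes with an unadjusted edgeR p-value under 0.05 only, and the others. Fam107a is lowest at -1.91 and Rgs2 highest at 1.52, and 14 genes lie within 0.3 of zero.

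In bulk tissue, fewer cells of a type and less RNA per cell cannot be told apart. Marker transcripts of several cell types had different summed levels in the genotypes. Of 77 markers of 15 cell types tested, edgeR called 0 after adjustment and DESeq2 called 1 lower and 4 higher, beside 0.879% and 0.817% of all genes. Before adjustment, 3 markers were lower and 17 higher in edgeR with a p-value under 0.05, beside 4.68% and 4.91% of all genes. The summed level of 8 B cell markers was 89.0 to 181 counts per 1000000 (CPM) in GR+/+ and 213 to 729 CPM in GRdim/dim lungs, with 8 of 8 markers higher. For 6 NK cell markers it was 7.41 to 17.3 CPM and 19.9 to 30.5 CPM, with 6 of 6 higher, and for 8 T cell markers 23.4 to 42.7 CPM and 37.6 to 58.9 CPM, with 7 of 8 higher. Neutrophil markers summed to 240 to 466 CPM and 341 to 1081 CPM, the highest value in GRdim/dim 1. For 6 alveolar macrophage markers the sum was 387 to 404 CPM and 237 to 280 CPM, with 5 of 6 lower. Chil3 made up most of that difference, at 244, 250 and 264 CPM and at 161, 156 and 95.6 CPM. It was the only one of these markers without overlap, and the log2 fold change was -0.03 for Mrc1 and 0.32 for Siglecf. Alveolar type 2 cell markers were abundant, as in lung, and their sums overlapped (15278 to 22354 CPM and 15106 to 23572 CPM). The sums of 5 endothelial markers overlapped too, at 1922 to 2845 CPM and 2402 to 2532 CPM, but 4 were lower and 1 higher. The higher one, Cldn5, was at 419, 442 and 370 CPM in GR+/+ and at 535, 697 and 1119 CPM in GRdim/dim lungs. Its log2 fold change was 0.94 (DESeq2 adjusted p = 0.0273), and among the lower ones it was -0.50 for Kdr and -0.44 for Pecam1. None of these markers was at 0 in any library. The part of these marker levels in the differences below was not tested.

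Total counts were 16361747 to 32082940 in GR+/+ and 15687734 to 24444604 in GRdim/dim libraries. The level of Xist relative to Y-linked genes was low in GR+/+ 1, GRdim/dim 1 and GRdim/dim 3 and high in the other 3, so the sexes were unevenly split over the genotypes. Within the low and within the high libraries, where 1 genotype has a single library, the log2 ratio of mean CPM was -2.27 and -1.30 for Fam107a, -1.59 and -1.24 for Fkbp5, and 1.08 and 2.09 for Rgs2. These values use the libraries of the main comparison and are given as a description. GR+/+ 1 was the highest library for 12 of the 34 genes and the lowest for none, and GRdim/dim 3 was the lowest for 11. Without GR+/+ 1, 6 instead of 10 genes were lower at an unadjusted p-value under 0.05.

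**Figure D2:**
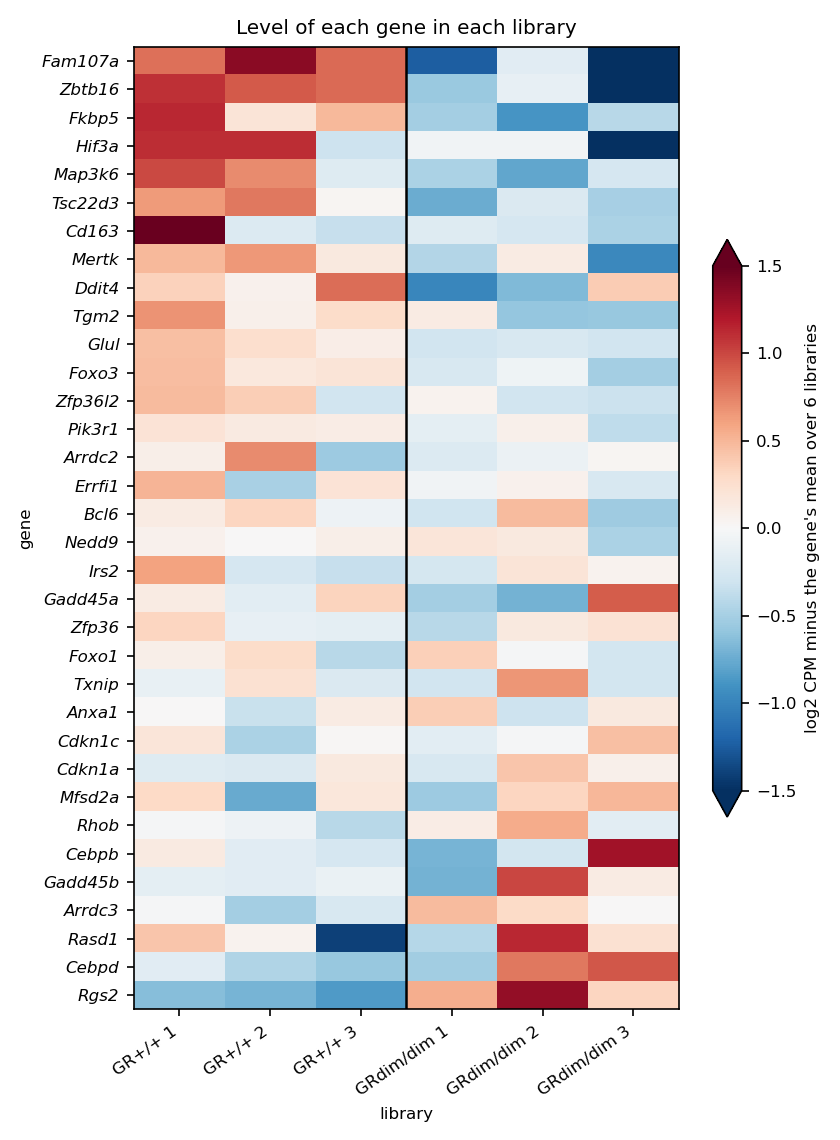
Level of each of the 34 genes (y axis, ordered by fold change) in each of the 6 libraries (x axis), as log2 CPM minus the mean of the gene over all libraries. Colours are limited to 1.5 in either direction. Fam107a, Zbtb16 and Fkbp5 at the top and Rgs2 at the bottom separate the genotypes, whereas Hif3a, Cd163, Rasd1 and Cebpd near the ends overlap, and several genes stand out in GR+/+ 1 or GRdim/dim 3.

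Receptor expression and feedback were examined first. The point mutation leaves the number of Nr3c1 copies unchanged, and the transcript was at 138, 145 and 162 CPM in GR+/+ and at 159, 150 and 120 CPM in GRdim/dim lungs. The groups overlapped, with a log2 fold change of -0.05 (SE 0.17, edgeR adjusted p = 0.961). Read counts per gene do not show the mutated base, so this level checks no label. Fkbp5 encodes a co-chaperone of HSP90 that lowers the hormone affinity of GR and closes a feedback loop. Its level was 152, 79.4 and 97.6 CPM in GR+/+ and 48.6, 37.4 and 52.2 CPM in GRdim/dim lungs. The groups did not overlap, and GR+/+ 1 was the highest library. The mean in GRdim/dim lungs was 42.0% of that in GR+/+, with a log2 fold change of -1.25 (SE 0.25, edgeR adjusted p = 0.103, DESeq2 adjusted p = 0.000504). Fkbp5 spans chr17:28399094-28517527 on the minus strand, and by its unadjusted p-value it stood at rank 68 of all genes tested.

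Among the 6 anti-inflammatory effectors, Tsc22d3 and Mertk were lower without overlap, beside 7.05% of all genes. Anxa1 and Zfp36 differed by less than their error. Tsc22d3 (chrX:140539528-140600659, minus strand) encodes GILZ, which binds and restrains NF-kappaB and AP-1. Its level was 269, 298 and 177 CPM in GR+/+ and 103, 149 and 123 CPM in GRdim/dim lungs. Every GRdim/dim lung was below the lowest GR+/+ lung, GR+/+ 3. The log2 fold change was -0.99 (SE 0.23, edgeR adjusted p = 0.175, DESeq2 adjusted p = 0.00705). Mertk encodes a receptor tyrosine kinase by which macrophages take up apoptotic cells. It was at 83.4, 93.9 and 66.1 CPM in GR+/+ and at 43.9, 65.1 and 30.5 CPM in GRdim/dim lungs, so that the nearest libraries of the groups almost met. This gave a log2 fold change of -0.80 (SE 0.26, edgeR adjusted p = 0.360). Beside it, the alveolar macrophage markers were lower as a sum, mostly through Chil3, and the groups overlapped for each of the other markers of that list. Other macrophage and monocyte markers summed to 225 to 332 CPM in GR+/+ and 292 to 368 CPM in GRdim/dim lungs.

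Cd163, the hemoglobin scavenger receptor of macrophages, was at 25.4, 7.79 and 7.12 CPM in GR+/+ and at 7.87, 7.56 and 6.46 CPM in GRdim/dim lungs. GR+/+ 1 alone was high, and the other 5 lungs lay together. The log2 fold change of -0.87 (SE 0.45, edgeR adjusted p = 0.586) became -0.03 without that library. Anxa1, which encodes the pro-resolving protein annexin A1, was at 390, 309 and 426 CPM in GR+/+ and at 503, 315 and 432 CPM in GRdim/dim lungs. These levels were similar between the groups, with a log2 fold change of 0.15 (95% interval -0.34 to 0.64).

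Zfp36 and Zfp36l2 encode related proteins that bind AU-rich elements and promote decay of cytokine mRNAs. Zfp36 was at 276, 202 and 198 CPM in GR+/+ and at 165, 243 and 257 CPM in GRdim/dim lungs, with a log2 fold change of -0.02 (SE 0.22). Zfp36l2 was at 267, 249 and 158 CPM and at 201, 158 and 154 CPM, with a log2 fold change of -0.40 (SE 0.22). Both pairs of groups overlapped.

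Among the 7 transcription factor genes, 3 were lower and 1 was higher with an unadjusted p-value under 0.05, beside 4.68% and 4.91% of all genes. Zbtb16 (chr9:48654297-48836222, minus strand) encodes PLZF, a zinc finger factor and one of the genes most strongly induced by glucocorticoids in many cell types. It was at 125, 110 and 106 CPM in GR+/+ and at 39.6, 53.6 and 12.9 CPM in GRdim/dim lungs. The GR+/+ lungs lay close together, and the GRdim/dim lungs were all far below and more spread. The mean in GRdim/dim lungs was 31.1% of that in GR+/+, with a log2 fold change of -1.68 (SE 0.41, edgeR adjusted p = 0.220, DESeq2 adjusted p = 0.000504).

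Hif3a encodes a hypoxia-inducible factor subunit that can oppose the other two. It was at 20.3, 20.3 and 7.53 CPM in GR+/+ and at 9.004, 9.014 and 2.65 CPM in GRdim/dim lungs. The third library of each genotype was low, and GR+/+ 3 fell within the range of GRdim/dim. Hif3a had a log2 fold change of -1.21 (SE 0.49, edgeR adjusted p = 0.472). Foxo3 was at 160, 129 and 132 CPM in GR+/+ and at 98.3, 111 and 81.0 CPM in GRdim/dim lungs, without overlap, and with a log2 fold change of -0.53 (SE 0.18, edgeR adjusted p = 0.366). It encodes a forkhead factor of stress and starvation responses. Its relative Foxo1 was at 67.9, 76.9 and 47.6 CPM and at 81.6, 62.7 and 52.8 CPM, with a log2 fold change of 0.04 (95% interval -0.46 to 0.53). Bcl6, a transcriptional repressor of lymphoid and myeloid cells, ranged from 58.3 to 76.7 CPM in GR+/+ and from 42.6 to 85.1 CPM in GRdim/dim lungs (log2 fold change -0.18, SE 0.25).

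Cebpb and Cebpd encode bZIP factors that act in the acute phase response and in myeloid and adipose differentiation, and are induced by cytokines as well as by glucocorticoids. Cebpd was at 364, 298 and 274 CPM in GR+/+ and at 284, 705 and 778 CPM in GRdim/dim lungs. GRdim/dim 2 and 3 were above all others, and GRdim/dim 1 fell within the range of GR+/+. The fitted log2 fold change was 0.92 (SE 0.33, edgeR adjusted p = 0.417). Cebpb was at 213, 173 and 162 CPM in GR+/+ and at 119, 160 and 465 CPM in GRdim/dim lungs, so only GRdim/dim 3 was high. Its log2 fold change of 0.44 (SE 0.44) became -0.39 without that library. Both genes overlap exons of a gene on the opposite strand, Tmem189 over 20.7% of the exonic bases of Cebpb and Spidr over 15.0% of those of Cebpd. Use of strand in the counting is not given in the sources used here.

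In edgeR, 0 of the 5 genes of growth arrest and stress had an unadjusted p-value under 0.05, beside 4.68% lower and 4.91% higher of all genes. Ddit4 (REDD1), an inhibitor of mTORC1, came closest, at 50.6, 41.6 and 71.4 CPM in GR+/+ and 20.2, 25.05 and 52.0 CPM in GRdim/dim lungs. GRdim/dim 3 lay within the range of GR+/+. The log2 fold change was -0.76 (SE 0.34, edgeR unadjusted p = 0.0510, DESeq2 unadjusted p = 0.0200 and adjusted p = 0.335). It was -1.27 without GRdim/dim 3, but -0.50 without GRdim/dim 1 and -0.51 without GR+/+ 3. Without the filter on low counts the edgeR adjusted p of Ddit4 was 0.0346, one of 8 genes of the list then called lower. That run called 522 genes in all, instead of 28 with the filter. Cdkn1a, which encodes the cell cycle inhibitor p21, was at 94.8, 93.3 and 120 CPM in GR+/+ and at 91.4, 145 and 114 CPM in GRdim/dim lungs, with overlapping groups. For Cdkn1c (p57) the levels were 71.8, 45.5 and 63.9 CPM and 56.7, 62.5 and 86.4 CPM. Both had a log2 fold change of 0.18, with 95% intervals from -0.26 to 0.63 for Cdkn1a and from -0.31 to 0.67 for Cdkn1c. The antisense gene Gm44732 covers 30.7% of the exonic bases of Cdkn1c.

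Gadd45a and Gadd45b, stress sensors upstream of p38 and JNK, were each carried by different lungs. Gadd45a was at 37.8, 31.1 and 43.8 CPM in GR+/+ and at 24.4, 21.2 and 65.2 CPM in GRdim/dim lungs. Its log2 fold change was -0.03 (SE 0.38), with the highest level of all in GRdim/dim 3, and E230016M11Rik on the opposite strand overlaps 19.1% of its exonic bases. Gadd45b was at 153, 151 and 158 CPM in GR+/+ and at 104, 340 and 185 CPM in GRdim/dim lungs, highest in GRdim/dim 2. Its log2 fold change of 0.45 (SE 0.34) became -0.09 without that library.

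Map3k6 and Glul were lower and Arrdc3 was higher, with an unadjusted p-value under 0.05, among the 9 genes of growth factor signalling and metabolism, beside the same shares of all genes (4.68% and 4.91%). Map3k6 (chr4:133240818-133252929, plus strand) encodes ASK2, a stress-activated MAP3 kinase. It was at 146, 121 and 64.5 CPM in GR+/+ and at 53.1, 42.8 and 62.1 CPM in GRdim/dim lungs. The groups did not overlap, but GR+/+ 3 was only just above GRdim/dim 3. This gave a log2 fold change of -1.07 (SE 0.28, edgeR adjusted p = 0.238, DESeq2 adjusted p = 0.0169). Glul encodes glutamine synthetase, which forms glutamine from glutamate and ammonia. It was at 605, 526 and 471 CPM in GR+/+ and at 363, 374 and 362 CPM in GRdim/dim lungs, and the latter group varied little. Glul had a log2 fold change of -0.54 (SE 0.18, edgeR adjusted p = 0.360). Of the 31-base windows of Glul, 20.4% also occur in transcripts of other genes, among them the pseudogene Glns-ps1, so a part of its counts is uncertain.

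Pik3r1, the p85 regulatory subunit of PI3-kinase, was at 135, 128 and 127 CPM in GR+/+ and at 106, 124 and 89.4 CPM in GRdim/dim lungs. The groups did not overlap, yet the difference was small (log2 fold change -0.29, SE 0.17, edgeR unadjusted p = 0.111). Errfi1, which encodes the EGFR inhibitor MIG6, was at 424, 212 and 343 CPM in GR+/+ and at 286, 311 and 253 CPM in GRdim/dim lungs. The GRdim/dim values all fell within the range of GR+/+ (log2 fold change -0.20, SE 0.25).

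Arrdc3, an alpha-arrestin that directs beta-adrenergic and other receptors to degradation, was at 228, 162 and 195 CPM in GR+/+ and at 318, 279 and 231 CPM in GRdim/dim lungs. It was higher in GRdim/dim lungs without overlap, by a log2 fold change of 0.50 (SE 0.20, edgeR adjusted p = 0.449). Its paralogue Arrdc2 was at 27.2, 41.7 and 17.5 CPM and at 22.1, 24.0 and 26.0 CPM, with overlap and a log2 fold change of -0.26 (SE 0.28). The other 3 genes of this group overlapped between genotypes. Irs2, an adaptor of the insulin receptor, had a log2 fold change of -0.06 (SE 0.25). Txnip, the inhibitor of thioredoxin, had one of 0.12 (SE 0.28), and 19.4% of its exonic bases are covered by Gm15441 on the other strand. Mfsd2a, a transporter of lysophosphatidylcholine, was low at 8.63 to 18.0 CPM in GR+/+ and 10.03 to 20.8 CPM in GRdim/dim lungs, with a log2 fold change of 0.19 (SE 0.34).

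The last group, genes of the cytoskeleton, small G proteins and matrix, held the strongest differences in both directions. Fam107a (chr14:8296274-8318023, minus strand) encodes an actin-binding protein known as DRR1. It was at 23.6, 33.99 and 23.9 CPM in GR+/+ and at 5.55, 11.7 and 4.26 CPM in GRdim/dim lungs. Every GRdim/dim lung was below every GR+/+ lung. The mean in GRdim/dim lungs was 26.4% of that in GR+/+, with a log2 fold change of -1.91 (95% interval -2.70 to -1.11, edgeR adjusted p = 0.0928, DESeq2 adjusted p = 1.10e-05). The smallest count behind these values was 66 reads.

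Rgs2 (chr1:143999338-144004161, minus strand) encodes a protein that ends signalling of Gq-coupled receptors and is also induced by cAMP and by vasoconstrictors. It was at 91.2, 88.1 and 78.8 CPM in GR+/+ and at 207, 355 and 179 CPM in GRdim/dim lungs. The GR+/+ lungs lay close together and the GRdim/dim lungs were all well above them, against the direction of Fam107a and Fkbp5. The mean in GRdim/dim lungs was 287% of that in GR+/+, with a log2 fold change of 1.52 (95% interval 0.97 to 2.08, edgeR adjusted p = 0.0546, DESeq2 adjusted p = 3.60e-06). Its unadjusted p-value had rank 31 of all genes tested, the lowest rank among the 34. Both genotypes received norepinephrine. The rate of infusion for each mouse is not given in the sources used here, and its part in the level of Rgs2 was not tested.

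Tgm2, the crosslinking enzyme transglutaminase 2, was at 374, 249 and 284 CPM in GR+/+ and at 257, 157 and 159 CPM in GRdim/dim lungs. GRdim/dim 1 was just above GR+/+ 2. The fitted log2 fold change was -0.66 (SE 0.24, edgeR adjusted p = 0.425). Genes on the opposite strand overlap Tgm2, Gm20412 over 13.7% and Rprd1b over 8.03% of its exonic bases. The other 3 genes overlapped. Nedd9, a scaffold protein of focal adhesions, had a log2 fold change of -0.07 (SE 0.19). Rhob, a small GTPase of endosomes and endothelial junctions, was at 213 to 279 CPM in GR+/+ and 254 to 415 CPM in GRdim/dim lungs (0.36, SE 0.22). Rasd1 (Dexras1), a Ras-like protein, was the least expressed of the 34, at 1.08 to 4.06 CPM and 2.21 to 6.69 CPM, with as few as 34 reads in a library (0.62, SE 0.53). Without GRdim/dim 2 the log2 fold change was 0.14 for Rhob and 0.08 for Rasd1. Without GR+/+ 1 it was 0.43 for Rhob and 1.02 for Rasd1.

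**Figure D3:**
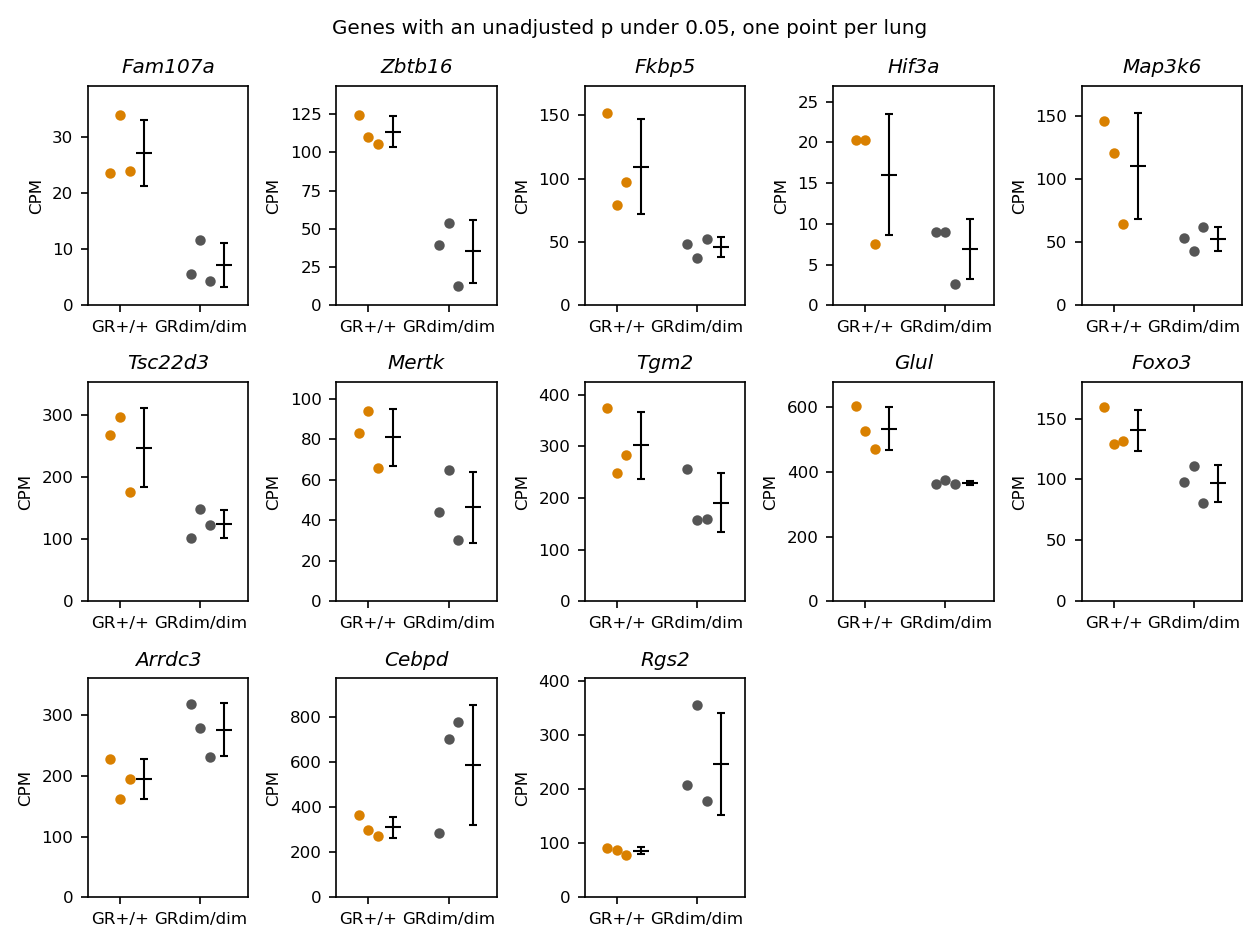
Level in CPM (y axes, from 0) of the 13 genes with an unadjusted p-value under 0.05, 1 point per lung, with mean and SD beside the points. GR+/+ is on the left of each panel and GRdim/dim on the right. The groups are apart for Fam107a, Zbtb16 and Rgs2, and overlap for Hif3a, Tgm2 and Cebpd.

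The 34 genes differed widely in level and in spread. Scaled by library size and by the length of the gene model (RPKM), the mean level in GR+/+ lungs ranged from 1.71 for Rasd1 to 172 for Txnip, followed by Glul at 161, Anxa1 at 144 and Cebpb at 121. The coefficient of variation between lungs of a genotype had a median of 18.4% in GR+/+ (2.40 to 77.1%) and of 23.3% in GRdim/dim (1.91 to 76.3%). Summed over all genes, the chi-square statistic between libraries of the same genotype was 13.9 to 44.1 per degree of freedom, where counting alone gives 1. So no library was a second copy of another of its genotype, and pairs across genotypes were not compared in this way. The SE of the log2 fold change ran from 0.17 to 0.53. For 24 of the 34 genes, the 95% interval excluded a fall to 50% or lower, that is a log2 fold change of -1, and for 10 genes it did not.

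Related genes were compared within each lung by the log2 ratio of their CPM, which does not depend on the scaling of the libraries. For Foxo1 over Foxo3 the ratio was -1.23, -0.75 and -1.47 in GR+/+ and -0.27, -0.83 and -0.62 in GRdim/dim lungs. The groups overlapped by GR+/+ 2 and GRdim/dim 2, and the difference in means was 0.58 (two-sided exact permutation p = 0.2). For Arrdc2 over Arrdc3 the difference was -0.68 (exact permutation p = 0.2), for Cebpb over Cebpd -0.61 (exact permutation p = 0.4), and for Zfp36 over Zfp36l2 0.34 (exact permutation p = 0.4). It was -0.48 for Gadd45a over Gadd45b (exact permutation p = 0.8) and -0.02 for Cdkn1a over Cdkn1c (exact permutation p = 0.9). The smallest p-value of this test with 3 against 3 lungs is 0.1, so none could pass, and adjusted over the 6 pairs all p-values were 0.6 or 0.9. Cebpb over Cebpd was nearly the same in the GR+/+ lungs, from -0.78 to -0.76. In GRdim/dim lungs it was -1.25, -2.14 and -0.74, so GRdim/dim 2 weighed most in the difference. Arrdc2 over Arrdc3 was -3.07, -1.96 and -3.48 in GR+/+ and -3.85, -3.54 and -3.15 in GRdim/dim lungs, with GR+/+ 2 apart. Zfp36 over Zfp36l2 was 0.05, -0.30 and 0.32 in GR+/+ and -0.28, 0.62 and 0.74 in GRdim/dim lungs, with GRdim/dim 1 apart from the others of its genotype.

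**Figure D4:**
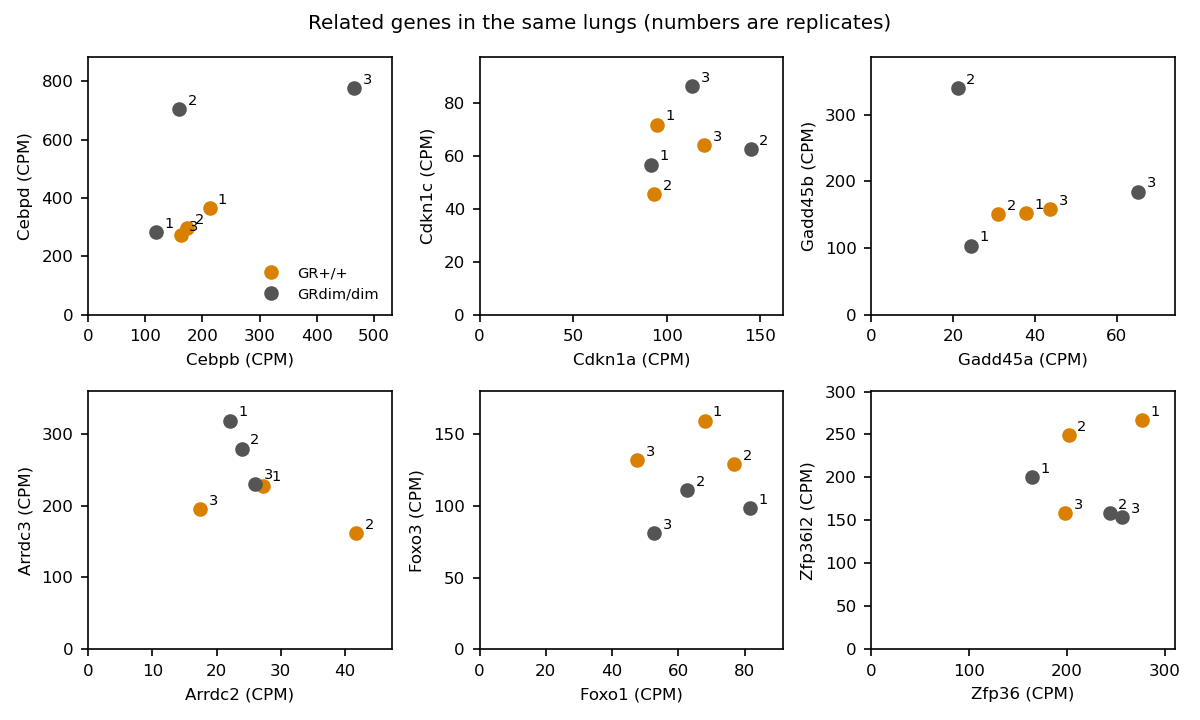
Levels in CPM of 6 pairs of related genes, the first gene on the x axis and the second on the y axis, 1 point per lung with its replicate number. In the panel of Cebpb and Cebpd, the 3 GR+/+ lungs lie together, whereas GRdim/dim 2 is high in Cebpd only and GRdim/dim 3 in both.

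Other genes of the pathway were taken from lists of fixed membership. In the machinery of the receptor (19 genes: receptors, 11-beta-hydroxysteroid dehydrogenases, chaperones and cofactors), 12 were lower and 7 higher, with none called by edgeR or DESeq2. Before adjustment, 2 of the 19 genes were lower with a p-value under 0.05 and 0 higher, beside 4.68% and 4.91% of all genes. Among these was Ep300, a histone acetyltransferase and coactivator, at 161, 138 and 144 CPM in GR+/+ and at 127, 117 and 83.1 CPM in GRdim/dim lungs (log2 fold change -0.44, SE 0.19). Its groups did not overlap.

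A second list held 12 further genes known to be induced by glucocorticoids, of which 5 were lower and 7 higher, with a median log2 fold change of 0.10. Of the 12, edgeR called 1 and DESeq2 called 3, all lower, beside 0.0966% and 0.879% of all genes called lower by these tools. Pdk4, which inhibits pyruvate dehydrogenase and favours fatty acid oxidation, was at 72.1, 62.0 and 65.4 CPM in GR+/+ and at 25.1, 21.1 and 23.8 CPM in GRdim/dim lungs. It fell by 1.51 on the log2 scale (SE 0.17, edgeR adjusted p = 0.00931), with both groups tight. Klf9 and Klf15, Kruppel-like factors of metabolism and circadian output, had log2 fold changes of -1.13 (edgeR adjusted p = 0.131) and -0.76 (edgeR adjusted p = 0.164), both without overlap and called lower by DESeq2. Angptl4, an inhibitor of lipoprotein lipase, had a log2 fold change of -0.52 (edgeR adjusted p = 0.469). Of the 12, 4 were lower and 0 higher at an unadjusted edgeR p-value under 0.05, beside 4.68% and 4.91% of all genes. The 7 with a higher mean were Dusp1 (log2 fold change 0.47, SE 0.34), Per1 (0.17, SE 0.25), Sgk1 (0.32, SE 0.21), Mt1 (0.51, SE 0.30), Mt2 (0.91, SE 0.75), Il1r2 (0.77, SE 0.42) and Scnn1a (0.04, SE 0.20).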

How the data were processed

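The values are whole read counts for each gene and library, deposited by the authors without normalization, together with gene symbols, coordinates and gene lengths. The submitters' processing notes name mm10 and DESeq2. Aligner, counting tool and strand setting are not given in the sources used here. Coordinates of all 34 genes equal those of GENCODE M21 (GRCm38). Counts were tested in R 4.3.3 with edgeR 4.0.16 (TMM, filterByExpr, robust glmQLFit, glmQLFTest) and Benjamini-Hochberg adjustment, and with DESeq2 1.42.0 as an alternative. CPM are TMM-scaled, and RPKM use the deposited gene length. The edgeR test gives no SE, so SE is the absolute log2 fold change divided by the square root of its F statistic. The 95% intervals were built from this SE with the t distribution and are approximate. The code was tested on simulated data. Replicates are separate mice. Members and lists were chosen with earlier results of these data known. All 34 genes are named. Among the 34, values per library are given for genes with an unadjusted p-value under 0.05 or no overlap, for the related pairs and for common indicator genes. For genes outside the 34 they are given in selected cases. Alternatives were other scaling and filters, DESeq2, a replicate block, a covariate for sex-linked expression, no fold change limit and each library left out. DESeq2 with each library left out was added after seeing the data. Promoters are RefSeq windows of GRCm38.p6, and genes without one there were not searched. A gene of the receptor machinery is not reported here.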

Additional observations from a re-analysis of the deposited data

How the results depend on the processing

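edgeR called 28 genes in all, 29 with RLE scaling or with at least 10 counts in every library, 34 with the replicate block, 20 with the covariate for sex-linked expression, 274 with DESeq2 and 522 without a filter on low counts. With each library left out it called 4 to 22, the fewest without GR+/+ 2. Of the 34 genes, edgeR called 0 lower in the main run, and 0 higher except without the filter. Without the filter, 8 were called lower and 2 higher, beside 522 of all genes in either direction. The edgeR adjusted p without the filter was 0.0109 for Mertk, 0.00485 for Hif3a and 0.00240 for Cebpd, which DESeq2 did not call. DESeq2 called 5 lower and 1 higher, beside 0.879% and 0.817% of all genes. With the block, edgeR called 1 lower (Fam107a, -2.02, adjusted p = 0.0284), beside 34 of all genes in either direction. With the covariate it called 1 lower (Fkbp5, -1.44, adjusted p = 0.0338), beside 20. With a library left out it called 0 to 1 lower (Fam107a, -2.46, without GRdim/dim 2), beside 4 to 22. The cause of these differences was not tested. At an unadjusted p-value, 6 to 12 were lower and 1 to 3 higher with a library left out, the fewest lower without GR+/+ 1, and 1 higher without GRdim/dim 2 or GR+/+ 3, beside 3.31 to 5.98% lower and 3.57 to 5.53% higher of all genes in these runs. Without overlap, 9 to 12 were lower and 2 to 5 higher, the most higher without GRdim/dim 1, beside 9.73 to 14.7% lower and 11.7 to 14.9% higher of all genes in these runs, where fewer libraries overlap less often. The median of the 34 genes ran from -0.26 to -0.02. DESeq2 with a library left out called 3 to 6 genes lower (3 without GRdim/dim 1, GR+/+ 1 or GR+/+ 2) and 1 to 2 higher, beside 0.432 to 1.23% and 0.367 to 1.03% of all genes. Fkbp5, Fam107a and Rgs2 kept their call in 6 of 6 such runs, Zbtb16 in 4, Tsc22d3 in 3 and Map3k6 in 2.

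Deviations from the genotype mean correlated at 0.22, 0.04 and -0.05 between same-numbered lungs, and at -0.27 to 0.19 between the others. With so few lungs these values cannot decide whether the numbers pair the mice. What the numbers mark is not given in the sources used here. The 13 genes with an unadjusted p-value under 0.05, which were chosen on these libraries, kept their direction under every alternative run. Another 14 genes, none with an unadjusted p-value under 0.05, changed direction in at least 1 run, with these lowest and highest log2 fold changes over the libraries left out. They were -0.14 and 0.16 for Zfp36, -0.14 and 0.19 for Foxo1 (-0.0096 with the covariate), -0.72 and 0.25 for Gadd45a, -0.23 and 0.31 for Irs2, -0.0037 and 0.34 for Cdkn1a, -0.092 and 0.78 for Gadd45b, and -0.26 and 0.29 for Txnip. They were -0.54 and 0.0057 for Bcl6, -0.39 and 0.79 for Cebpb, -0.018 and 0.33 for Cdkn1c, -0.068 and 0.45 for Mfsd2a, -0.18 and 0.11 for Nedd9, -0.43 and 0.033 for Errfi1, and -0.52 and 0.11 for Arrdc2. The difference in log2 ratio ran from -0.24 to 0.17 for Cdkn1a over Cdkn1c and from -0.998 to 0.25 for Gadd45a over Gadd45b. Depth limits Rasd1 most, with as few as 34 reads in a library.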
